A study of Mus musculus with 12 samples.

Results

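The 10 tubulin isotypes examined here are 3 alpha-tubulin genes (Tuba1a, Tuba1b and Tuba4a) and 7 beta-tubulin genes (Tubb2a, Tubb2b, Tubb3, Tubb4a, Tubb4b, Tubb5 and Tubb6). They were taken by symbol from a deposited table of 23253 genes, and all 10 were found and passed the filter on low counts. RNA was sequenced in 12 libraries, 3 in each of 4 groups, from cells labelled as cortical neurons sorted by flow cytometry from C57BL/6 mice. Adult control libraries carry the numbers 1 to 3 and came from adult animals without stroke. Stroke libraries carry the numbers 4 to 6 and came from adult animals with a focal cortical stroke 2 mm wide, made with rose bengal, a photosensitive dye, and 15 min of cold light. Another group, numbered 1 to 3, had the same stroke and is labelled as GDF10 siRNA, a short RNA meant to lower GDF10, a growth factor related to TGF-beta. It is called siRNA-labelled stroke here. The P4 libraries, numbered 4 to 6, are labelled as animal controls, with no word on the meaning of P4, and the growth protocol given for all 12 libraries speaks of adult mice. No label gives an age in days, a time after stroke, or whether replicates were separate animals, so the p-values measure only the spread between these libraries, which may be technical.

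Alpha- and beta-tubulin form dimers that build microtubules, the tracks that carry cargo along axons and support the processes of glia. Each of both subunits is encoded by several genes, and the proteins differ mostly in their acidic tails, which enzymes further modify. In the brain, Tuba1a, Tubb2b and Tubb3 are best known from young neurons growing axons, while Tubb4a is abundant in adult brain and in myelinating oligodendrocytes. Isotype genes are so alike that short reads can fit more than 1 of them.

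The end of the coding sequence, which encodes the acidic tail, shows how close the pairs are. The last 69 coding bases, the length of 1 read, are printed 5′ to 3′ from GENCODE M21 transcripts for 2 pairs of beta genes. Capitals mark bases that differ from the partner in an alignment of both ends.
Tubb2a: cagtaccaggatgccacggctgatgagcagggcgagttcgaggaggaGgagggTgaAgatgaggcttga
Tubb2b: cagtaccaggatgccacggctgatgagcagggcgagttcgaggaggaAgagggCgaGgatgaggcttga
Tubb4a: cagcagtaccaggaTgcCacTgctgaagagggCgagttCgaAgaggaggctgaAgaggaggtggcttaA
Tubb4b: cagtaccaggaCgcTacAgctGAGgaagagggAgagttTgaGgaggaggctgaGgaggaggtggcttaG
Tubb2a and Tubb2b differed at 3 of these 69 bases, so a read over this whole end holds bases that separate them. Over the whole coding sequence the identity was 98.3% between Tuba1a and Tuba1b and 96.5% between Tubb2a and Tubb2b. It was 83.2% between Tubb4a and Tubb4b, which shared no 69-base window.

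Read-length windows of each transcript were searched in all other annotated transcripts and pseudogenes. Of the 69-base windows of Tuba1a, 78.3% occurred in another gene or pseudogene, and of those of Tuba1b, 87.0%. The gene that shared most with both was Tuba1c, another alpha-tubulin. For Tubb2a and Tubb2b the shares were 44.7% and 38.4%, mostly with each other. Tubb4b shared 44.2%, chiefly with its pseudogene Tubb4b-ps1, and none with the other isotypes. The 28.0% of Tuba4a came from Stk16, a kinase gene on the opposite strand over the same position. Tubb3, Tubb4a, Tubb5 and Tubb6 shared no window, so no error-free read of their main transcripts fits another annotated gene. Matches with mismatches, and sequence outside annotated transcripts, were not searched. How reads with several matches were counted is not given in the sources used here.

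**Figure D1:**
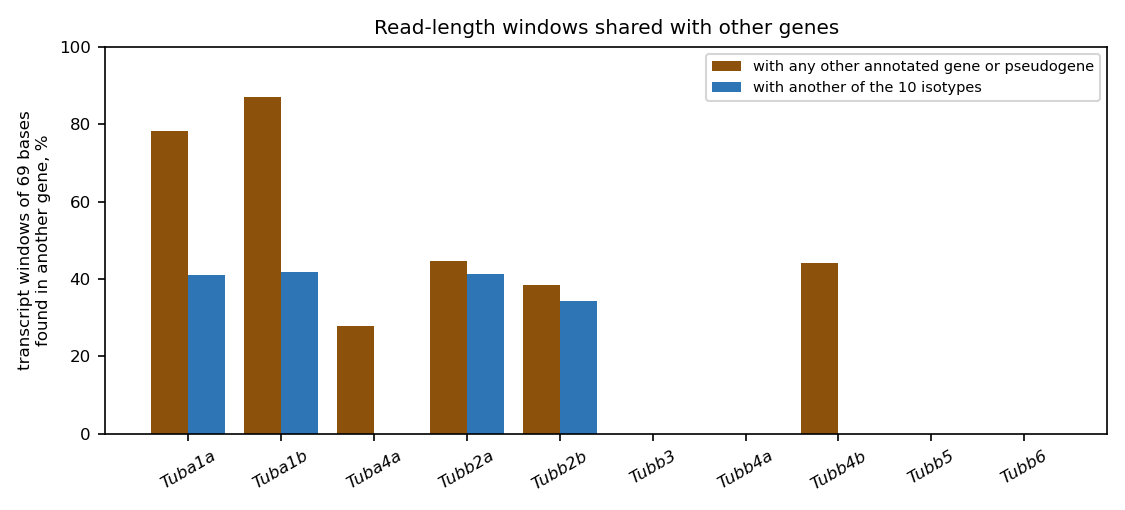
Percent of 69-base windows of each transcript (y axis) found in any other annotated gene or pseudogene (brown) or in another of the 10 isotypes (blue). Tuba1a and Tuba1b reach 78.3% and 87.0%, and Tubb3, Tubb4a, Tubb5 and Tubb6 are at 0.

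In mm10 the genes lie on 7 chromosomes, all but Tubb3 and Tubb6 on the minus strand, and each main transcript has 4 exons. Tuba1a is at chromosome 15, 98949847 to 98953501, and Tuba1b follows at 98931429 to 98934390. Tubb2a and Tubb2b are neighbours on chromosome 13, at 34074278 to 34078008 and 34127008 to 34130354. Tubb4a is on chromosome 17 at 57080061 to 57087600, and Tubb5 on the same chromosome at 35833920 to 35838301. Tubb3 is on chromosome 8 (123411553 to 123422015), Tubb4b on chromosome 2 (25222158 to 25224702) and Tuba4a on chromosome 1 (75214972 to 75221261). Tubb6 is on chromosome 18 (67390731 to 67402749).

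Each library held between 10517638 and 48633350 counts. The targeted gene, Gdf10, had 189, 241 and 33 counts in P4 and 15, 21 and 0 in adult control. In stroke it had 0, 5 and 0, and in siRNA-labelled stroke 8, 7 and 1. Its level in siRNA-labelled stroke was not below that of stroke (log2 fold change 2.34, SE 1.67, adjusted p = 0.778 by edgeR), and at these counts a difference was not detectable. In the adult groups, 9 oligodendrocyte markers took 0.885 to 1.795% of all counts and 15 pan-neuronal markers 0.183 to 0.675%, although the cells were labelled as neurons. In P4 these shares were 0.00553 to 0.0105% and 0.716 to 1.03%. Adult control 3 had the smallest total and lay far from every other library on both leading principal components. The 45S ribosomal precursor RNA held over 2% of counts in the 3 stroke libraries, adult control 2 and siRNA-labelled 3, and under 0.5% in the other 7. Library numbers 1 to 3 and 4 to 6 follow the groups, so a batch that follows them cannot be told apart from stroke or P4 against adult control, nor from siRNA-labelled stroke against stroke or P4.

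Levels are CPM, counts scaled to library size with TMM factors, given as mean ± SD with n = 3 per group. Between genes they are compared only per kb of transcript. The unknown rule for shared reads can shift such comparisons, most of all for Tuba1a and Tuba1b. On that scale Tubb4a was the highest isotype in all 3 adult groups, at 2262 ± 872 CPM per kb in adult control, 5847 ± 1118 in stroke and 2975 ± 599 in siRNA-labelled stroke. Tuba1a was next, at 180.3 ± 137, 1179 ± 273 and 312 ± 243 CPM per kb. In each adult group no library of Tuba1a reached the lowest library of Tubb4a, and every other isotype lay below Tuba1a. In P4 the order changed. Tuba1a was first at 1424 ± 603 CPM per kb, then Tubb5 at 319 ± 149.9, Tubb4a at 315 ± 37.3 and Tubb2a at 212 ± 30.2. The libraries of Tubb5 and Tubb4a overlapped there, and those of Tuba1a and Tubb5 did not. Tubb6 was lowest in all 4 groups, at a mean of 2.12 to 3.85 CPM per kb.

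**Figure D2:**
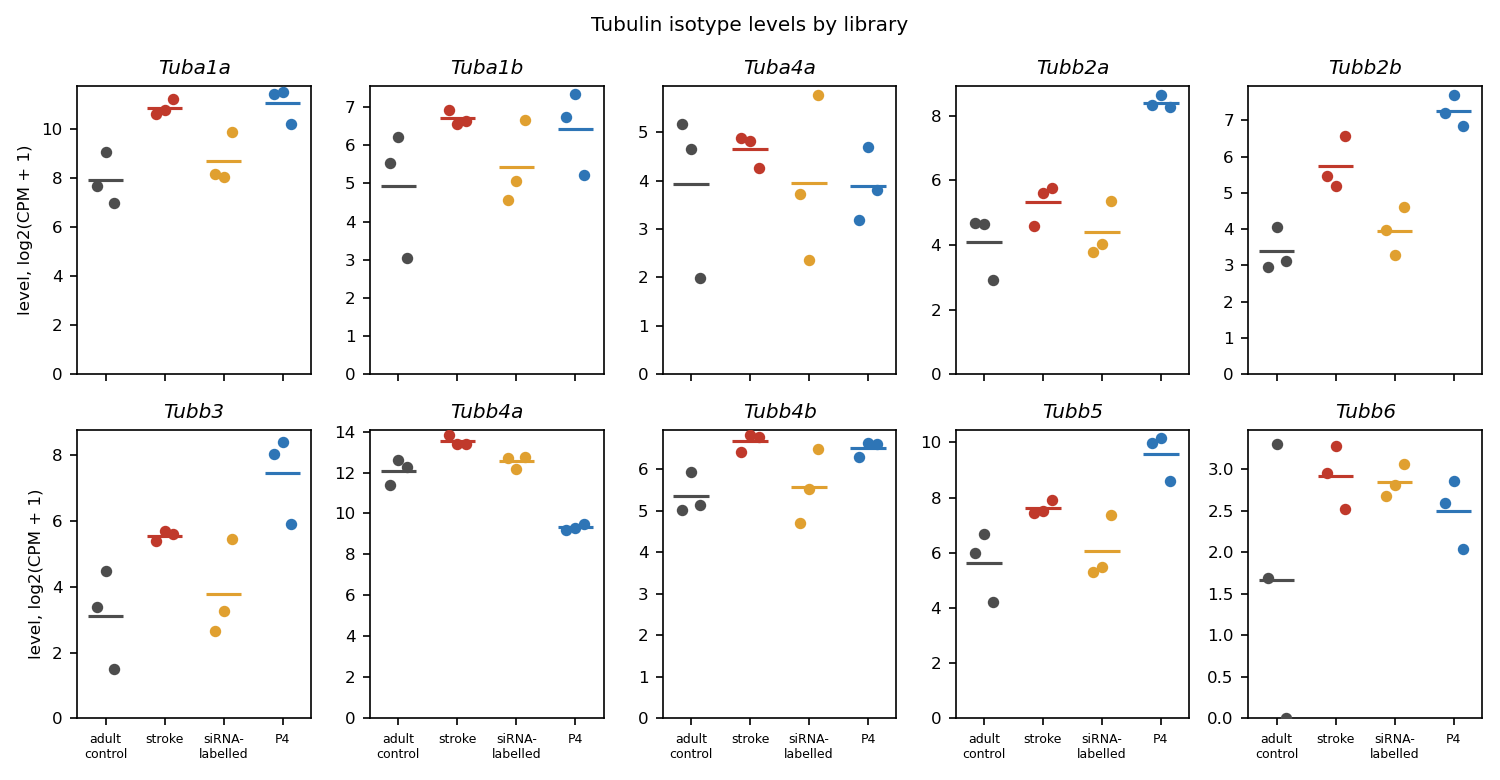
Level of each isotype as log2(CPM + 1) (y axis) in the 12 libraries, by group (x axis); points are libraries and lines are group means. Tubb4a alone has every P4 library below every adult library, while Tubb2a, Tubb2b, Tubb3 and Tubb5 have every P4 library above every adult library.

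The make-up of the tubulin signal separated P4 from the adults. Tubb4a took 84.5, 85.6 and 95.2% of the isotypes' counts per kb in adult control 1, 2 and 3, 85.3, 79.1 and 73.9% in stroke 4, 5 and 6, 92.8, 90.0 and 79.7% in siRNA-labelled 1, 2 and 3, and 9.64, 9.37 and 22.1% in P4 4, 5 and 6. All 9 adult libraries thus lay far above the 3 of P4. Tuba1a took 58.6, 55.5 and 45.4% in P4. Its share among the adult controls was 8.13, 9.46 and 3.06%, against 11.5, 16.5 and 21.2% in stroke and 5.11, 6.47 and 13.9% in siRNA-labelled stroke, so each stroke library was above each adult control library.

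**Figure D3:**
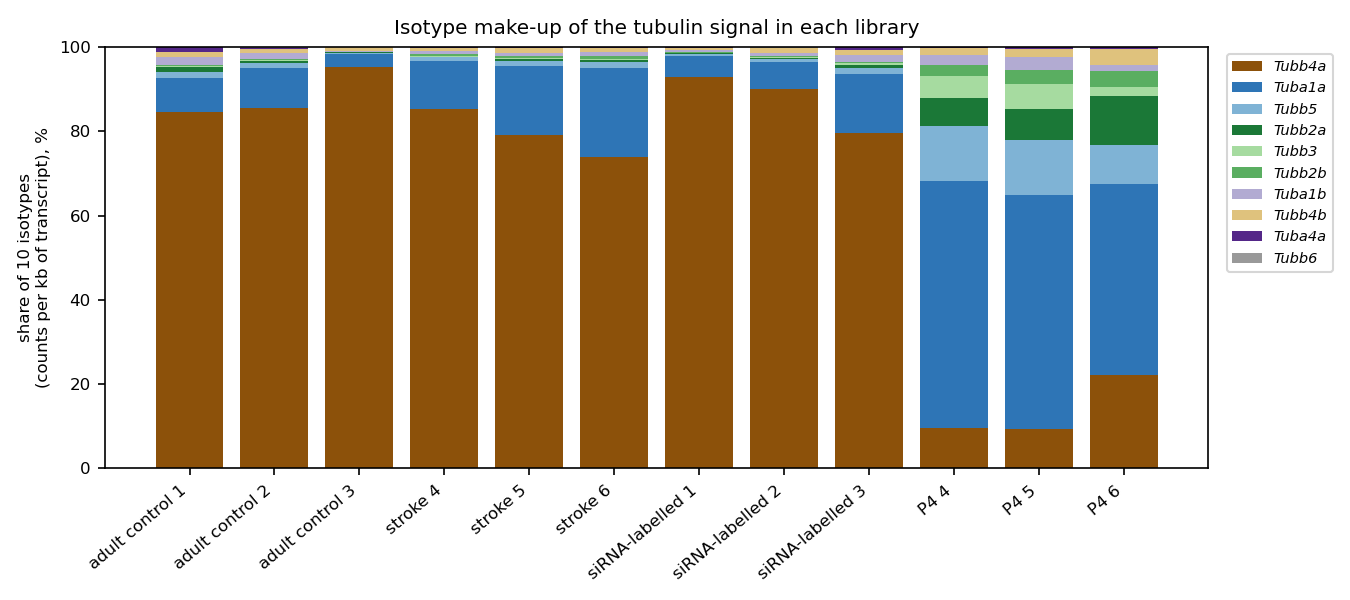
Share of each isotype in the summed counts per kb of the 10 isotypes, in percent (y axis), for each library (x axis). Tubb4a fills 73.9 to 95.2% of every adult bar and 9.37 to 22.1% of the P4 bars, where Tuba1a is the largest part.

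Summed over beta genes, the level per kb was 8.03, 8.01 and 29.3 times that of the alpha genes in adult control 1, 2 and 3. The ratio was 6.96, 4.69 and 3.49 in stroke, 16.5, 12.6 and 5.24 in siRNA-labelled stroke and 0.639, 0.695 and 1.12 in P4. P4 alone was near or below 1. The size of these ratios depends on how shared reads were counted, which is not known. Of the single windows of Tuba1a and Tuba1b, 78.3% and 87.0% occur in other genes or pseudogenes, against 0% for Tubb4a. Tuba1c was not in the alpha sum. All 10 isotypes together took 1.53, 1.33 and 1.37% of all counts in stroke, 0.361, 0.792 and 0.430% in adult control, 0.675, 0.458 and 0.879% in siRNA-labelled stroke and 0.575, 0.648 and 0.262% in P4. The 3 stroke libraries were higher than all others, and most of these counts were Tubb4a. Without Tubb4a the sum came to 4039 ± 1635 CPM in P4, 2457 ± 508 in stroke, 769 ± 599 in siRNA-labelled stroke and 496 ± 337 in adult control. The mean of P4 was highest on that sum, but P4 and stroke overlapped, as P4 6 (2186 CPM) was below stroke 5 (2294 CPM) and 6 (3027 CPM). In bulk RNA, fewer cells of a type and less RNA per cell cannot be told apart.

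The first comparison asked how the isotypes differed between stroke and adult control. Every one of the 10 was on average higher in stroke, by a median of 1.34 on the log2 scale, against -0.08 over all 17909 genes tested. Only Tubb2b passed the test, edgeR's quasi-likelihood test with Benjamini-Hochberg adjustment over all genes at 0.05, in a comparison where 0.486% of genes were called higher. Before adjustment, 7 of 10 had a p under 0.05, as did 2852 of all genes tested. In 7 isotypes every stroke library lay above every adult control library, which held for 11.0% of genes.

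Tubb2b, a beta-tubulin of young neurons, was at 6.78, 15.8 and 7.76 CPM in adult control 1, 2 and 3 and at 43.6, 35.4 and 94.7 CPM in stroke 4, 5 and 6. The groups did not overlap, and stroke 6 was highest by far. Its level rose from 10.104 ± 4.94 to 57.9 ± 32.1 CPM (2.51, SE 0.52, adjusted p = 0.0381 on the log2 scale). The call was lost in 8 of 12 alternatives, among them the fit of the 2 groups alone (adjusted p = 0.165) and 5 of the 6 fits without 1 library (1.97, adjusted p = 0.207 without stroke 6, and 2.36, adjusted p = 0.0918 without adult control 3). With Tubb2a and Tubb2b summed, so that the split of reads between them does not matter, the difference was 1.8 (SE 0.46, adjusted p = 0.0986). The sum cannot restore reads dropped for fitting both, nor settle reads shared with the pseudogene Tubb2a-ps2.

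Tuba1a, the main alpha-tubulin of developing neurons, showed the widest difference, though it missed the threshold. Its level was 202, 535 and 124 CPM in adult control and 1528, 1736 and 2362 CPM in stroke. Each stroke library was more than 2 times as high as adult control 2, the highest control. Its log2 fold change reached 2.71 (SE 0.60, adjusted p = 0.0551), and Tuba1a was called in 4 of 12 alternatives. Summed with its close copies Tuba1b and Tuba1c, the difference was 2.58 (SE 0.60, adjusted p = 0.0704). Tuba1b, a widely expressed alpha-tubulin, was at 45.6, 73.1 and 7.30 CPM in adult control and 120.4, 92.5 and 98.8 CPM in stroke (1.3, SE 0.72, adjusted p = 0.391). Tuba4a, the alpha-tubulin encoded without a final tyrosine, was at 35.1, 24.1 and 2.97 CPM in adult control and 28.3, 27.4 and 18.2 CPM in stroke, and its groups overlapped (0.24, SE 0.85, adjusted p = 0.913).

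Tubb4a, the beta-tubulin abundant in oligodendrocytes, was at 2702, 6222 and 4959 CPM in adult control and 14603, 10715 and 10569 CPM in stroke. All stroke libraries were above all controls, and the difference was 1.37 (SE 0.32, adjusted p = 0.0718) on the log2 scale. Tubb3, the beta-tubulin used to mark neurons, was at 9.48, 21.3 and 1.82 CPM in adult control and 40.5, 50.9 and 47.2 CPM in stroke (2.07, SE 0.85, adjusted p = 0.256). Tubb3 did not overlap either, yet its controls spread over more than 10-fold. Tubb5, a beta-tubulin of dividing and young cells, was at 63.1, 103 and 17.6 CPM in adult control and 173, 182 and 239 in stroke (1.69, SE 0.63, adjusted p = 0.220). The widely expressed Tubb4b was at 31.6, 59.8 and 34.4 CPM in adult control and 85.3, 114 and 109.7 CPM in stroke (1.29, SE 0.43, adjusted p = 0.182). Both had higher levels in each stroke library than in any control.

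Tubb2a, the close neighbour of Tubb2b, was at 24.6, 24.1 and 6.501 CPM in adult control and 23.0, 47.9 and 53.1 CPM in stroke, and these overlapped (1.16, SE 0.52, adjusted p = 0.299). Tubb6, scarce in brain, was at 2.22, 8.87 and 0 CPM in adult control and 6.73, 8.68 and 4.72 CPM in stroke, which overlapped (0.84, SE 1.05, adjusted p = 0.719). Its 0 counts in adult control 3 allow a level of up to 0.342 CPM, 3 counts in that library, and this limit covers counting error only, as PCR copies were not marked. In the authors' deposited table, with fold changes close to these, Tubb2b (2.52, FDR 0.000957), Tuba1a (2.71, FDR 0.00122) and Tubb4a (1.38, FDR 0.0308) were under 0.05.

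**Figure D4:**
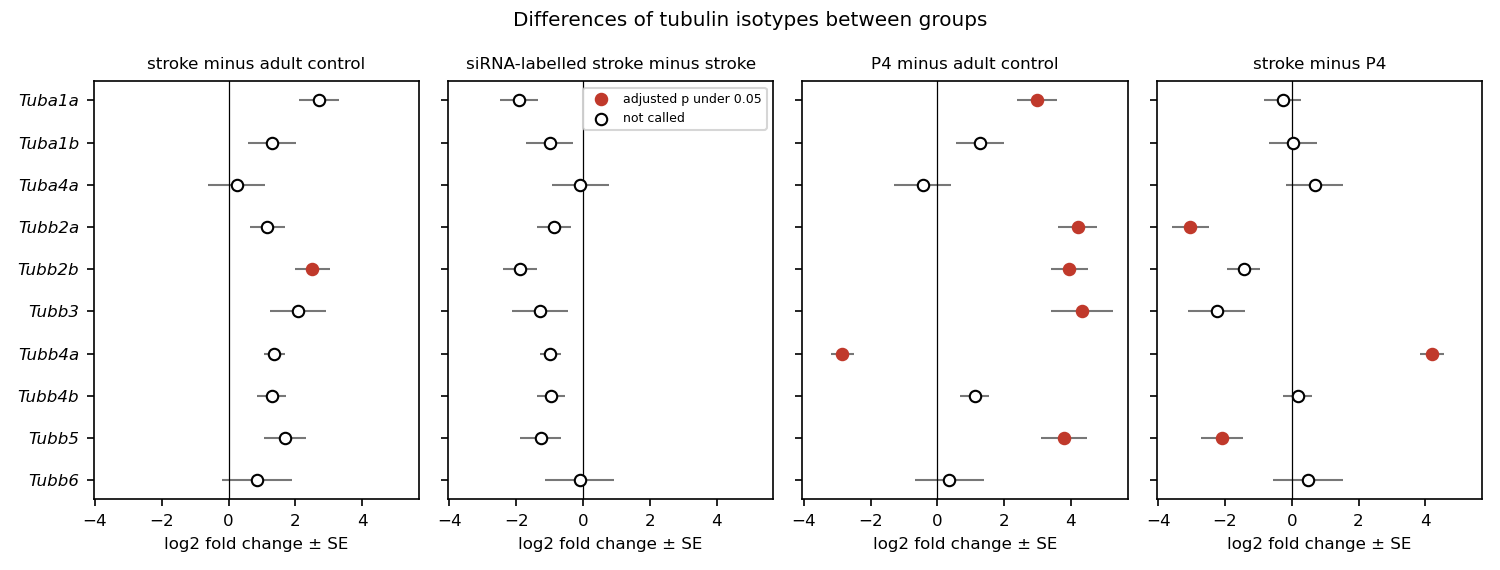
Log2 fold change ± SE (x axis) of each isotype in 4 comparisons, with filled points where the adjusted p was under 0.05. In stroke against adult control all 10 points lie above 0 and 1 is filled, and in P4 against adult control 6 are filled, 5 above 0 and Tubb4a below.

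Other measures of the libraries moved with these levels. In adult control the library with a high 45S share, adult control 2, had the highest level of 8 of 10 isotypes, all but Tuba4a and Tubb2a. In siRNA-labelled stroke, library 3 had the highest level of all 10. Both libraries also had the most counts of their groups (36009796 and 33082818), so 45S share and depth went together. How many of all genes follow this pattern was not counted. The 45S share was 2.44, 2.11 and 2.11% in stroke. The adult controls had 0.427, 2.08 and 0.0964%, against 0.329, 0.304 and 2.72% in siRNA-labelled stroke and 0.142, 0.349 and 0.00984% in P4. With the 45S class as a term in the fit, Tubb2b differed by 1.91 between stroke and adult control (adjusted p = 0.274) and no isotype was called.

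Markers of the oligodendrocyte lineage also differed between the groups. The 6 markers of committed oligodendrocyte precursors took 0.0531 to 0.165% of counts in adult control, 0.405 to 0.682% in stroke, 0.170 to 0.231% in siRNA-labelled stroke and 0.00984 to 0.0185% in P4, and 3 of 6 were called higher in stroke, where 0.486% of all genes were. None of Gpr17, Enpp6 and Bmp4, which define that list, was at 0 in any library. The 9 markers of oligodendrocytes took 0.921, 1.27 and 0.885% of the adult control libraries, 1.795, 1.61 and 1.47% of stroke and 1.26, 1.27 and 1.59% of siRNA-labelled stroke, with Mbp, Mog and Mag detected throughout. Each stroke library was above each adult control library, stroke and siRNA-labelled stroke overlapped, and 1 of 9 was called higher in stroke. The 6 immature neuron markers took 0.0140 to 0.0495% in adult control and 0.0339 to 0.0424% in stroke, with 1 called higher. Of those that define this list, Dcx and Sox11 were detected throughout and overlapped between these groups. Dcx was at 108, 68.9 and 515 CPM in adult control and 268, 220 and 235 CPM in stroke. Sox11 was at 39.2, 38.9 and 71.7 CPM in adult control and 89.2, 67.1 and 114 CPM in stroke. Igfbpl1 had 2, 1 and 0 counts in adult control and 70, 93 and 28 in stroke, at most 2.98 CPM. Markers called lower in stroke were 4 of 7 of astrocytes and 2 of 8 of excitatory neurons, where 0.218% of all genes were. The part of these cell types in the tubulin differences was not tested.

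**Figure D5:**
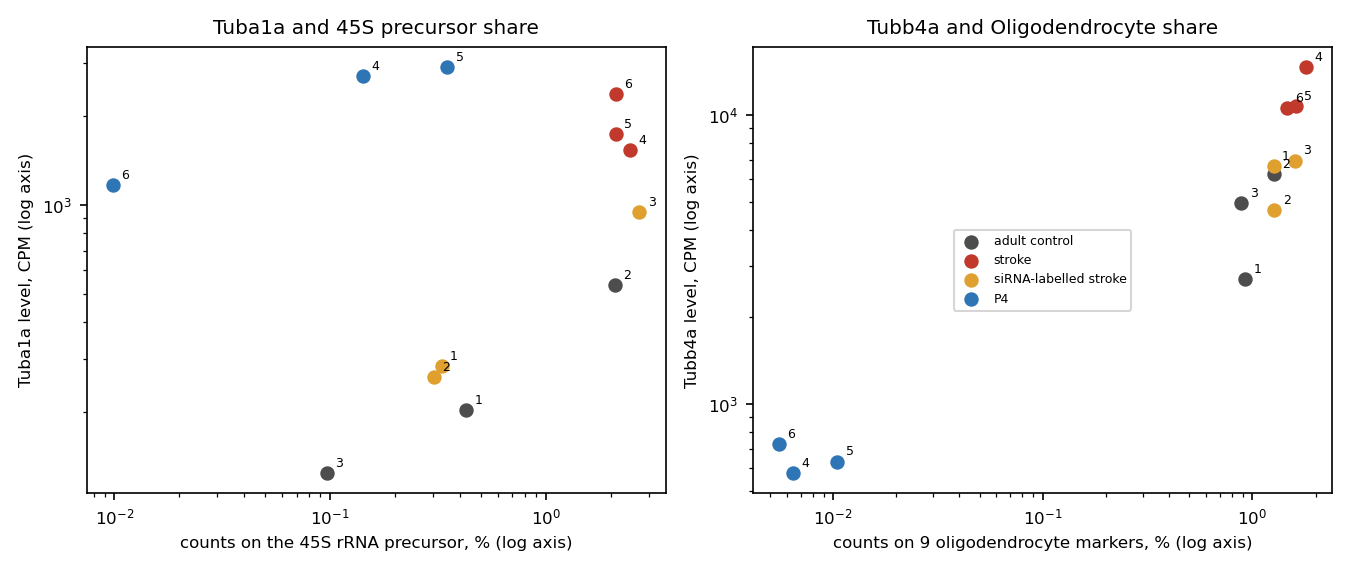
Left, Tuba1a level in CPM (y axis) against percent of counts on the 45S precursor (x axis); right, Tubb4a level in CPM against percent of counts on 9 oligodendrocyte markers; all axes are log, and each point is a library with its number. Left, the 5 libraries over 2% include the 3 of stroke, and P4 lies under 0.5%; right, the 3 P4 libraries are low on both axes.

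The second comparison set siRNA-labelled stroke against stroke. All 10 isotypes were on average lower in the siRNA-labelled libraries, with a median of -0.99 against 0.04 over all genes tested. None passed edgeR's test, in a comparison where 0.00558% of genes were called. Before adjustment 4 had a p under 0.05 (Tuba1a, Tubb2b, Tubb4a and Tubb4b), as did 1319 of all genes. DESeq2 called 1, Tubb2b (adjusted p = 0.0350), beside 161 of 17087 over all genes. For 4 isotypes (Tuba1a, Tubb2b, Tubb4a and Tubb5) every siRNA-labelled library lay below every stroke library, which held for 8.11% of genes. This comparison shares the stroke libraries with the first.

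Tuba1a was at 284, 262 and 942 CPM in siRNA-labelled 1, 2 and 3. Library 3 stood well above the other 2, yet under the lowest stroke library (1528 CPM), a difference of -1.92 (SE 0.58, adjusted p = 0.549) on the log2 scale. Tubb2b was at 14.6, 8.74 and 23.6 CPM, a difference of -1.88 (SE 0.50, adjusted p = 0.466). Tubb4a was at 6637, 4682 and 6941 CPM (-0.97, SE 0.32, adjusted p = 0.585), and Tubb5 at 38.7, 44.2 and 163 CPM (-1.27, SE 0.62, adjusted p = 0.678). In each of these, siRNA-labelled 3 was the library nearest to stroke.

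The other 6 isotypes overlapped between these groups. Tuba1b was at 22.9, 32.2 and 101 CPM, Tubb3 at 5.26, 8.51 and 42.9 CPM and Tubb4b at 25.1, 44.8 and 88.4 CPM. Library 3 was within or close to the stroke range in all 3. Tubb2a was at 12.9, 15.3 and 39.7 CPM, Tuba4a at 12.19, 4.17 and 53.5 CPM and Tubb6 at 5.38, 6.02 and 7.33 CPM. The log2 fold changes of these 6 ran from -1.29 for Tubb3 to -0.08 for Tuba4a. In the authors' deposited table no isotype had an FDR under 0.05 here, and the lowest was that of Tubb2b (0.112).

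Set against adult control, siRNA-labelled stroke showed no isotype past the threshold, where 0.117% of genes were called. None had an unadjusted p under 0.05, DESeq2 called 0, and no isotype separated the groups. All 10 averages were above 0, with a median of 0.41, the largest being Tuba1a at 0.79 (SE 0.57, adjusted p = 0.782). Without siRNA-labelled 3, the library with the high 45S share, 7 of the 10 fell below 0, so the direction of those 7 rests on that library. Tubb4a, Tubb2b and Tubb6 stayed above 0 in every fit without 1 library.

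P4 against adult control gave the widest isotype differences. Of the 10, 5 were called higher (Tuba1a, Tubb2a, Tubb2b, Tubb3 and Tubb5) and 1 lower (Tubb4a), where 6.32% of genes were called higher and 10.4% lower. The median was 2.12 against -0.16 over all genes. All 6 calls held in each of the alternatives tried.

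Tubb2a was at 318, 396 and 306 CPM in P4 4, 5 and 6, against at most 24.6 CPM in adult control, and rose by 4.2 (SE 0.59, adjusted p = 0.000151). Tubb2b was at 148, 209 and 115 CPM and rose by 3.95 (SE 0.55, adjusted p = 0.000142). Summed, the pair rose by 4.12 (SE 0.51, adjusted p = 5.23e-05), so the difference does not turn on how their shared reads were split. Per kb, Tubb2a was above Tubb2b in every P4 library and in adult control 1 and 2, and level with it in adult control 3 (4.05 and 4.04 CPM per kb). In stroke 4 and 6 Tubb2b was the higher, at 22.7 against 14.3 and 49.3 against 33.1 CPM per kb. The order within the pair depends on how the reads they share were assigned.

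Tubb3 was at 261, 340.0 and 59.4 CPM in P4 and had the largest fitted rise, 4.32 (SE 0.93, adjusted p = 0.00463). Tubb5 was at 1007, 1132 and 391 CPM and rose by 3.78 (SE 0.68, adjusted p = 0.00128). In both, P4 6 was the lowest of P4 and still above every control. Tuba1a was at 2722, 2912 and 1164 CPM and rose by 2.98 (SE 0.61, adjusted p = 0.00308). Here too P4 6 was lowest, far under the other P4 libraries. P4 6 also had the fewest counts of its group.

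Tubb4a was at 577, 632 and 727 CPM in P4, a narrow range that lay below all controls, and fell by 2.84 (SE 0.34, adjusted p = 3.62e-05). All 9 oligodendrocyte markers were called lower in P4 as well, where they took 0.00553 to 0.0105% of counts, with none of Mbp, Mog and Mag at 0. All 6 immature neuron markers were called higher, at 0.692 to 0.888% of counts against 0.0140 to 0.0495% in adult control. Dcx, a microtubule-binding protein of migrating young neurons, was at 5453 to 9031 CPM in P4 and 68.9 to 515 CPM in adult control. The part of cell type in these differences was not tested. Tubb4b was at 77.9, 98.0 and 97.3 CPM and above every control, but missed the threshold (1.12, SE 0.43, adjusted p = 0.0946). Tuba1b, at 106, 161 and 36.1 CPM, Tuba4a, at 8.07, 24.9 and 12.9 CPM, and Tubb6, at 5.02, 6.24 and 3.11 CPM, overlapped adult control.

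Stroke against P4, which share no library, asked how far stroke levels stood from those of P4. Tubb4a was called higher in stroke (4.21, SE 0.36, adjusted p = 1.34e-06), where 10.8% of genes were called higher. Tubb2a (-3.04, SE 0.56, adjusted p = 0.00114) and Tubb5 (-2.09, SE 0.64, adjusted p = 0.0312) were called lower, where 7.94% were. The Tubb5 call was lost in 5 of 6 fits without 1 library (adjusted p = 0.0800 to 0.104). In 4 isotypes (Tubb2a, Tubb2b, Tubb3 and Tubb5) no stroke library was as high as any of P4, which held for 21.7% of genes. Tubb2b and Tubb3 were not called by edgeR. Their differences were -1.44 (SE 0.50, adjusted p = 0.0565) and -2.25 (SE 0.85, adjusted p = 0.0815). DESeq2 called both, and 4689 of 16412 over all genes.

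Tuba1a was the exception among the 5 genes called higher in P4 than in adult control. Its stroke libraries lay between P4 6 and the other 2 of P4, and the difference of stroke from P4 was -0.27 (SE 0.56, adjusted p = 0.802), within its error. That gives no proof of equal levels. With the 45S class as a term in the edgeR fit the difference was -2.02 (adjusted p = 0.0127). Every stroke library but no P4 library is in the high class. The size of the term therefore came from adult control and siRNA-labelled stroke, with 1 library in the high class in each. Stroke and P4 cannot show whether that size holds for them, so this value does not separate 45S class from group. Tubb4b (0.18, SE 0.43, adjusted p = 0.836) and Tuba1b (0.04, SE 0.71, adjusted p = 0.981) also lay close to P4.

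The siRNA-labelled libraries were set against P4 in the same way. Tuba1a (-2.19, SE 0.59, adjusted p = 0.0151), Tubb2a (-3.91, SE 0.58, adjusted p = 0.000196), Tubb2b (-3.33, SE 0.53, adjusted p = 0.000376), Tubb3 (-3.54, SE 0.90, adjusted p = 0.0108) and Tubb5 (-3.36, SE 0.67, adjusted p = 0.00207) were called lower than in P4, where 8.05% of genes were. Tubb4a was called higher (3.24, SE 0.34, adjusted p = 9.61e-06), where 11.6% were. Tuba1a missed the threshold without siRNA-labelled 1 (adjusted p = 0.0785) or 2 (0.0803), and Tubb3 without siRNA-labelled 2 (0.0594). This comparison and the last share the P4 libraries.

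Promoter sequences are shown for Tuba1a and Tubb2a, called higher in P4 than in adult control, and Tubb4a, called lower. The 250 bases before the gene start are RefSeq sequence of GRCm38.p6, printed 5′ to 3′ on the gene's own strand. They lie on the minus strand at chr15:98953502-98953751, chr13:34078009-34078258 and chr17:57087601-57087850. Capitals mark matches, on either strand, to the TATA box TATAAA, the CCAAT box CCAAT, the Sp1 motif GGGCGG, the E-box CAGCTG and the cAMP response element TGACGTCA.
Tuba1a: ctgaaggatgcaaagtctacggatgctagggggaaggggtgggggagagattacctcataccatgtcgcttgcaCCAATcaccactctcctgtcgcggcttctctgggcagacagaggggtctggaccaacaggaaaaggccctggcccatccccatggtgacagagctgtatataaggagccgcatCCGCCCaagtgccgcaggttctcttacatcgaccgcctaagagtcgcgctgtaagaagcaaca
Tubb2a: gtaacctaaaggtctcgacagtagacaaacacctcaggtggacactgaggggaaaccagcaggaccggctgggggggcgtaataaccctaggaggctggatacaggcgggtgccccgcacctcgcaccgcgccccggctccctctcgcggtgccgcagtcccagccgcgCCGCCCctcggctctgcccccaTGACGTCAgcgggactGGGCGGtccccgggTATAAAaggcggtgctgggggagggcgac
Tubb4a: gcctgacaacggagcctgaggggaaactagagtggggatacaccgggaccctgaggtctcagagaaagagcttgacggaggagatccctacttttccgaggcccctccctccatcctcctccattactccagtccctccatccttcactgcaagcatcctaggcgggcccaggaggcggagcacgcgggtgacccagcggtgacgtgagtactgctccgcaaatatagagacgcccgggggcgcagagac
Tuba1a has 1 CCAAT box and 1 Sp1 motif, the latter read on the other strand. Tubb2a has 1 TATA box, 2 Sp1 motifs, 1 of them read on the other strand, and 1 cAMP response element. Tubb4a has none of the 5 motifs in this window. Only these exact strings were searched, so variant forms are not marked or counted, such as the tatataa of Tuba1a. Among 27025 promoters of this length, 13.0% hold the TATA box, 34.5% the CCAAT box, 32.9% the Sp1 motif, 12.8% the E-box and 1.62% the cAMP response element. No marked match in the printed promoters overlaps another. Promoters were read for 8 isotypes. Tubb2b had no entry, and the promoter of Tubb6 is not reported here.

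Genes that fold, modify, sever or nucleate tubulin were taken from 7 lists, of which 70 genes were tested. In stroke against adult control edgeR called 0 of 70, with 10 at an unadjusted p under 0.05 (2852 of 17909 over all genes, a like share). DESeq2 called 5 of 70, beside 1293 of 16744 over all genes, again a like share. These 5 were modifying enzymes (Agbl2, Atat1, Sirt2, Ttll7 and Vash1, named after their values were seen). In siRNA-labelled stroke against stroke edgeR called 0 (4 unadjusted) and DESeq2 1, Ttll7, beside 161 of 17087 over all genes. Against adult control the siRNA-labelled group had 0 by both tools and none unadjusted.

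In P4 against adult control 12 of 70 were called higher and 6 lower, beside 6.32% and 10.4% of all genes, so the share of lower calls was no larger than over all genes. Of 8 subunits of CCT, the ring that folds new tubulin, 4 rose, among them Cct8 (1.48, SE 0.31, adjusted p = 0.00343) and Cct6a (1.29, SE 0.26, adjusted p = 0.00322). Tbca, which holds newly folded beta-tubulin, was the 1 of 7 cofactors called, at a widely spread 71.4 ± 62.6 CPM in P4 and 11.9 ± 1.09 CPM in adult control (2.58, SE 0.57, adjusted p = 0.00551). Scaper, part of the machinery that degrades tubulin mRNA when free tubulin is abundant, rose by 2.07 (SE 0.35, adjusted p = 0.000688), 1 of 3. Of 6 prefoldin subunits 0 were called (1 unadjusted, 0 by DESeq2).

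Of 23 modifying enzymes 5 rose and 4 fell in P4. Vash2, which removes the final tyrosine of alpha-tubulin, rose from 1.57 ± 0.235 to 110 ± 32.2 CPM (6.14, SE 0.84, adjusted p = 0.000132). Ttll7, which adds glutamates to the beta-tubulin tail, fell from 831 ± 89.9 to 73.8 ± 5.39 CPM (-3.49, SE 0.29, adjusted p = 1.33e-06). Among 16 genes of nucleation and severing, 1 rose, the severing enzyme Spast (1.40, SE 0.34, adjusted p = 0.0104), and 2 fell, among them its relative Fign (-3.27, SE 0.55, adjusted p = 0.000773). Of 7 other tubulins tested, 0 were called by edgeR (0 unadjusted) or DESeq2. Among these Tuba1c, the copy that shares most windows with Tuba1a, was at 0.456 to 16.7 CPM over the 12 libraries, far below Tuba1a in each.

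Against P4, stroke had 6 of 70 called higher and 10 lower, and siRNA-labelled stroke 6 higher and 14 lower. Over all genes 10.8% and 11.6% were called higher, so the higher calls were no more frequent in these lists, and 7.94% and 8.05% were called lower. Cct6a was at 288 ± 51.7 CPM in stroke, 207 ± 18.0 CPM in siRNA-labelled stroke and 555 ± 71.0 CPM in P4, so P4 was highest in both comparisons. Among the modifying enzymes 3 were higher and 4 lower in stroke, and 3 higher and 6 lower in siRNA-labelled stroke. Vash2 had 1.96 ± 2.30 CPM in stroke and 4.24 ± 2.16 in siRNA-labelled stroke, far under its level in P4. Ttll7 was at 404 ± 78.3 CPM in stroke, between P4 and the 845 ± 140 CPM of siRNA-labelled stroke. Katnal1, a catalytic subunit of the severing enzyme katanin, was higher in stroke than in P4 by 2.04 (SE 0.30, adjusted p = 0.000187).

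The genes whose levels over the 12 libraries were most like those of 3 isotypes were taken among 10546 genes outside the family. For Tuba1a they were Ppp1r14b, an inhibitor of a protein phosphatase (Pearson's r = 0.971 on log2 CPM), Actg1, a cytoplasmic actin (0.960), and Vash1, a tubulin-modifying enzyme (0.959). For Tubb2b they were Nav2 (0.960), Mdga1 (0.948) and Idh1 (0.943). For Tubb4a they were Lima1 (0.987), Sox10, a transcription factor of the oligodendrocyte lineage (0.986), and Gltp (0.985). Among the isotypes, Tubb3 and Tubb5 were most alike (0.989) and Tubb2a and Tubb4a most opposed (-0.77). These values describe 12 libraries that share groups, depth and 45S share.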

How the data were processed

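RNA from 12 libraries was made with a kit that amplifies total RNA (Ovation RNA-seq v2) and read as 69 bp pairs, per the labels' protocols. The authors deposited 1 table of raw counts per gene beside log2 fold changes, p-values and FDR from their own comparisons. CASAVA 1.8.2, edgeR and mm10 are named per the submitters' processing notes. How reads were aligned and counted, and with which strand rule, is not given in the sources used here. P4 library 4 has a column named P3. The table's 30 other columns of per-library values were not used.

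Counts were fitted with edgeR 4.0.16 (R 4.3.3) over all 12 libraries, with 1 mean per group, its filter on low counts by group (17909 of 23253 genes kept) and TMM factors. The quasi-likelihood test was run with Benjamini-Hochberg adjustment over all genes tested, and a gene was called at an adjusted p under 0.05. The SE is the log2 fold change over the root of F. Levels per kb used transcript lengths of GENCODE M21. For likeness of pattern, log2 CPM with a prior count of 2 was used, for genes averaging 5 CPM or more. DESeq2 1.42.0, other scaling, no filter, fits of 2 groups, a replicate block and leaving out each library were tried. After the data were seen, a term for the 45S class (over or under 1% of counts) and sums of close paralogs were added. Every stroke library is over and every P4 library under that cut. The term is therefore estimated from adult control and siRNA-labelled stroke.

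All 10 isotypes were named, and of each pathway list at most the 2 called genes with the smallest p. Of the oligodendrocyte list 1 marker is not reported here and was left out of its sums and counts. The members and lists were chosen with earlier results of these data known. In counts simulated for stroke against adult control (17322 genes), 7 of 50 genes with a log2 change of 2 were called, 24 of 50 with 3 and 35 of 50 with 5, beside 2 false calls.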

Additional observations from a re-analysis of the deposited data

How the results depend on the processing

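In stroke against adult control, where 1 isotype was called, DESeq2 called 3, size factors by RLE 2, no filter on low counts 2, the fit of the 2 groups alone 0 and the 45S class as a term 0. Over all genes DESeq2 called 1293 of 16744, RLE 109 of 17909 and no filter 158 of 23253. Leaving out 1 library gave 0 to 3, with 3 without adult control 2. In siRNA-labelled stroke against stroke DESeq2 called 1 and leaving out 1 library 0. In stroke against P4, where 3 were called, DESeq2 called 5, the fit of the 2 groups alone 5 and the 45S term 6. Over all genes DESeq2 called 4689 of 16412 there, the fit of the 2 groups 4789 of 15587 and the 45S term 2049 of 17909. Leaving out 1 library gave 2 to 4 isotypes. The 45S class coincides with the groups there, so the term cannot separate them. Leaving out 1 library gave 4 to 7 calls in siRNA-labelled stroke against P4 and 6 to 7 in P4 against adult control, where 6 were called in each. Outside leave-one-out, 295 of the isotypes' values kept direction and side of the threshold, 20 newly passed, 3 were lost and 14 turned. In leave-one-out 319 kept both, 6 newly passed, 13 were lost and 22 turned.

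Values that turned were those of weak differences. With the 45S term Tuba4a was at 0.53 in siRNA-labelled stroke against stroke. It was at -0.99 (stroke), -0.47 (siRNA-labelled stroke) and 0.0057 (P4) against adult control, and at -0.999 (stroke) and -0.47 (siRNA-labelled stroke) against P4. With that term Tubb6 was at 1.24 (siRNA-labelled stroke against stroke), -1.34 (stroke against P4) and -0.10 (siRNA-labelled stroke against P4), and in stroke against P4 Tuba1b was at -1.63 and Tubb4b at -0.93. Tuba1b in stroke against P4 was -0.047 by DESeq2 and -0.047 with RLE. The cause was not tested.

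Leaving out 1 library turned these values. In siRNA-labelled stroke against adult control Tuba1a ran from -0.077 to 1.61, Tuba1b from -0.62 to 0.97, Tuba4a from -1.35 to 0.77, Tubb2a from -0.39 to 0.58, Tubb3 from -0.68 to 1.72, Tubb4b from -0.27 to 0.68 and Tubb5 from -0.57 to 1.02. In siRNA-labelled stroke against stroke Tuba4a ran from -1.60 to 0.41 and Tubb6 from -0.31 to 0.12. Tuba4a ran from -0.26 to 0.85 in stroke against adult control, from -0.99 to 0.17 in P4 against adult control and from -0.91 to 1.15 in siRNA-labelled stroke against P4. Tubb6 ran from -0.21 to 2.05 in P4 against adult control, and Tuba1b from -0.37 to 0.54 in stroke against P4.

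With the replicate number as a block, 5 isotypes were called in stroke against P4 (Tubb2b and Tubb3 added), beside 4567 of 15587 over all genes. In siRNA-labelled stroke against adult control the block gave 0 isotypes and 0 of 15803 genes, and Tuba4a turned to -0.55. Deviations of same-numbered libraries correlated at 0.160, 0.0136 and 0.153 in stroke and P4. In adult control and siRNA-labelled stroke the values were 0.0642, -0.19 and -0.34. Stroke 4, stroke 6 and adult control 1 were most like the library of their own number. Stroke 5 (0.0203 with P4 4), adult control 2 (0.481 with siRNA-labelled 3) and adult control 3 (0.201 with siRNA-labelled 1) were not. With 3 libraries per group and mixed values, this check cannot decide whether the numbers pair the libraries. Other comparisons hold no shared numbers.

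Over all genes, stroke against adult control gave 126 calls (87 higher, 39 lower), 1293 by DESeq2 (418 higher, 875 lower), 43 in the fit of the 2 groups alone, 41 with the 45S term and 31 to 548 without 1 library. For siRNA-labelled stroke against stroke the 1 call became 161 by DESeq2 and 88 in the fit of 2 groups, and for siRNA-labelled stroke against adult control 21 became 333 and 0. P4 against adult control gave 3001, by DESeq2 4540, in the fit of 2 groups 1639 and without 1 library 1852 to 3099. Stroke against P4 gave 3359, by DESeq2 4689, in the fit of 2 groups 4789, with the 45S term 2049 and without 1 library 2401 to 2905. For siRNA-labelled stroke against P4 it was 3517, and 2418 to 3196 without 1 library. RLE factors moved the median of all genes in stroke against adult control from -0.08 to -0.19. Without adult control 3, the library with the lowest total (10517638 counts), no isotype was called in stroke against adult control. The same held without adult control 1, stroke 4, stroke 5 or stroke 6.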
